A study of Homo sapiens with 6 samples.

Results

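Abundant housekeeping mRNAs were followed here as pairs of rows in a table of RNA-seq read counts. Each pair joined the row of a gene with the row of a non-coding gene annotated on the other strand over the gene's exons. The 5 pairs were GAPDH with AC006064.4, TUBA1B with AC011603.2, TUBB with AL662797.1, UBB with AC093484.3 and TPT1 with AL138963.3, which makes 10 of the 59087 rows. They were picked from their read counts in these same libraries, so their levels and the size of their strand ratios are given as a description, with no test. Changes of each row and of each strand ratio between genotypes were tested. The row of the gene is called the gene row below, and the row on the other strand the opposite row.

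The libraries came from HEK293T, a line derived from human embryonic kidney that carries the SV40 large T antigen. Total RNA was sequenced from wild-type cells (WT) and from 2 individual THUMPD2 knockout lines (KO1 and KO2), with 2 libraries per group. THUMPD2 is a methyltransferase of the U6 spliceosomal RNA, and the stated aim was to find expression and splicing changes after its loss. How the knockouts were made is not given in the labels, and WT is represented by 1 line, so a knockout and any other difference between lines cannot be told apart.

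GAPDH is the glycolytic enzyme that oxidises glyceraldehyde 3-phosphate. TUBA1B and TUBB encode an alpha and a beta tubulin, which pair to form the subunit of microtubules. UBB is a polyubiquitin gene whose product is cut into single ubiquitins, and TPT1 encodes the translationally controlled tumour protein, from an mRNA that starts with a pyrimidine tract, as ribosomal protein mRNAs do. All are transcribed at high levels in most cell types, and GAPDH and tubulin are common references for normalising other measurements. A directional library keeps the strand of each RNA, and a stranded count then credits a read only to genes of 1 strand. The labels describe the libraries as directional and of the first-strand type, in which read 1 is complementary to the RNA. The strand setting used for counting is not given in the sources used here, and its part in the results below was not tested.

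The opposite rows share exonic bases with the genes, in part coding sequence. The GAPDH gene (ENSG00000111640.14) lies on the plus strand of chromosome 12, from 6533927 to 6538374 in GRCh38. All 422 exonic bases of AC006064.4 (ENSG00000269968.1, minus strand, 6537794 to 6538370) lie over GAPDH exons, and 219 of them over coding exons. A 90-base coding stretch at chr12:6537794-6537883 is printed on both strands, because a read from it counts for one row or the other by strand alone. Sequences are from GENCODE v29 transcripts, 5′ to 3′. Capitals mark bases that differ from the nearest other annotated gene, GAPDHP1 for the GAPDH line. The AC006064.4 line is the complement and has no capitals.
GAPDH: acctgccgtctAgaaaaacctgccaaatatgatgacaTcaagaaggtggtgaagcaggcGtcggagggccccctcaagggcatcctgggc
AC006064.4: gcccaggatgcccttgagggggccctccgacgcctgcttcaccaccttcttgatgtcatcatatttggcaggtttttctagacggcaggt

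The other pairs differed in how much they shared. The share of the opposite row's exonic bases that lay over the gene was 80.2% for AC011603.2, 69.6% for AL662797.1 and 100% for AC093484.3 and AL138963.3, and the coding part of the shared bases ran from 27.9% (TPT1) to 100% (TUBB). TUBA1B (ENSG00000123416.15, chromosome 12, 49127782 to 49131397, minus strand) shares 1309 exonic bases with AC011603.2 (ENSG00000258017.1, 49127782 to 49147869, plus strand), of which 922 are coding. TUBB (ENSG00000196230.12, chromosome 6, 30720201 to 30725426, plus strand) shares 538 bases with AL662797.1 (ENSG00000272540.1, 30723105 to 30723877, minus strand), all of them coding. UBB (ENSG00000170315.13, chromosome 17, 16380798 to 16382745, plus strand) shares 461 bases with AC093484.3 (ENSG00000265401.1, 16382152 to 16382669, minus strand), 386 of them coding. TPT1 (ENSG00000133112.16, chromosome 13, 45333471 to 45341370, minus strand) shares 588 bases with AL138963.3 (ENSG00000273149.1, 45340039 to 45341183, plus strand), 164 of them coding. One 90-base coding stretch of each shared block is printed on the gene's strand, to show how few bases tell it from its nearest relative. The stretches are chr12:49128775-49128864 on the minus strand for TUBA1B, chr6:30723340-30723429 on the plus strand for TUBB, chr17:16382152-16382241 on the plus strand for UBB and chr13:45340095-45340184 on the minus strand for TPT1. Capitals mark differences from TUBA1C, TUBBP1, UBBP4 and TPT1P9 in turn, of which there are 3, 0, 1 and 2.
TUBA1B: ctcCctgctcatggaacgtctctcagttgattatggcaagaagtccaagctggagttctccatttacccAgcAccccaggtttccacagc
TUBB: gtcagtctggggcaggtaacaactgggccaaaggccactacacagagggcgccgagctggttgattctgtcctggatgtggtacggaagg
UBB: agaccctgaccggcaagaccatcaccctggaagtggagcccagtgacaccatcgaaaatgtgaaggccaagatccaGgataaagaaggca
TPT1: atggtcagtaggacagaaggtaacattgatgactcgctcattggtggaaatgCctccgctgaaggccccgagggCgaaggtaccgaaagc

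Each shared coding block also had close copies elsewhere. The TUBA1B block of 854 bases matched TUBA1C, a second alpha tubulin gene, at 837 bases (98.01%). The 538-base TUBB block matched TUBBP1 at 97.03%, the 359-base UBB block matched UBBP4 at 97.49%, and the 146-base TPT1 block matched TPT1P9 at 97.26%. The 192-base GAPDH block matched GAPDHP1 at 93.75%, and 11 pseudogenes aligned to it at 90% identity or more. The UBB block repeats itself as well, since 127 of 131 bases were identical when it was shifted by 228 bases, the length of 1 ubiquitin unit. How reads with several equal placements were counted is not given in the sources used here, so counts over these blocks are uncertain to that extent.

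**Figure D1:**
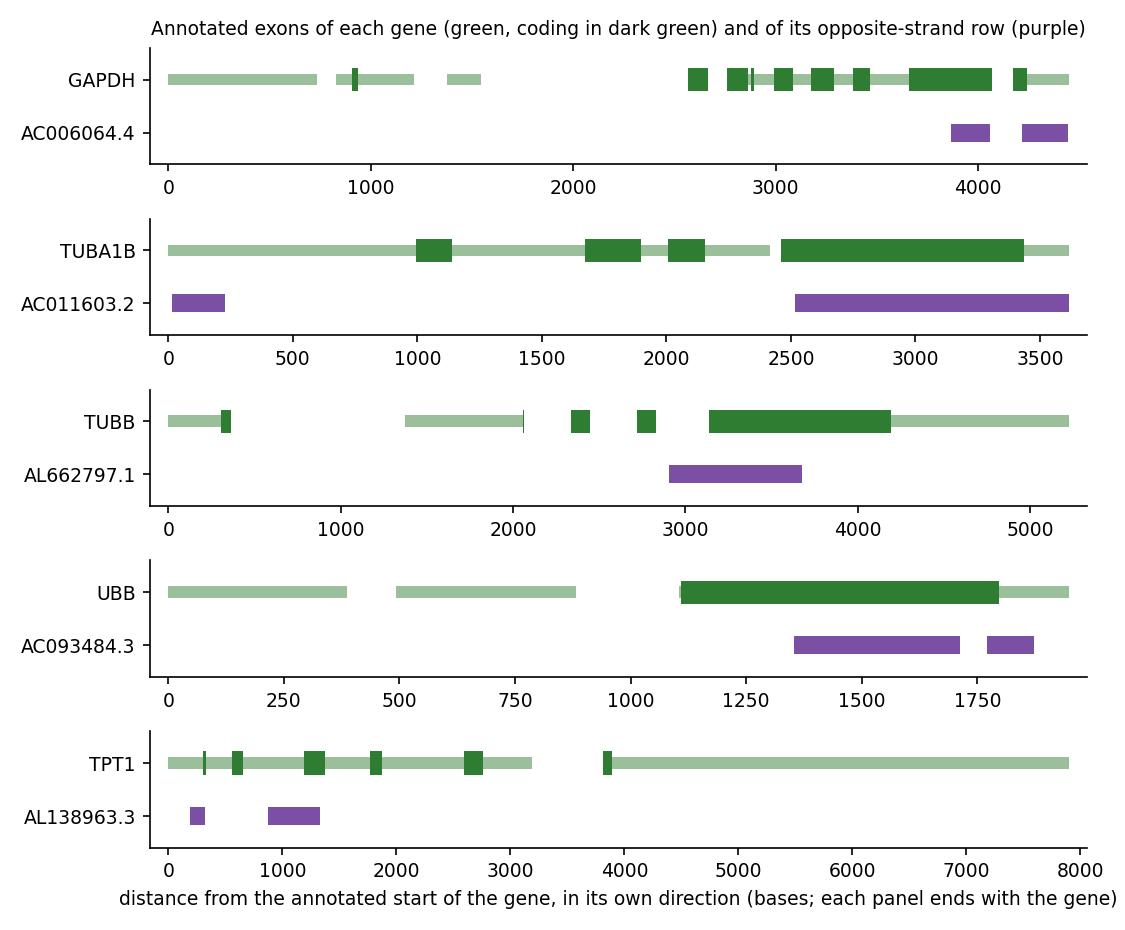
Exons of each gene (light green, coding parts dark green) and of its opposite row (purple), drawn by distance in bases from the annotated start of the gene, in its own direction. The opposite rows of GAPDH and UBB lie over the 3′ part of the gene and that of TPT1 over its 5′ part. The exons of AC011603.2 that extend beyond TUBA1B are not drawn.

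The 6 libraries held 7414339 to 8391143 counted reads. The design text states over 240M reads, and whether that is per library or per group is not said. THUMPD2 itself had 1 and 2 reads for WT, 3 and 0 for KO1, then 0 and 1 for KO2, so the genotype labels could not be checked by the target. Of the HEK293T and kidney markers, the vimentin gene VIM had a mean of 32592 reads in its opposite row and 445 in its gene row, and the neurofilament gene NEFM had 2446 and 80.8. CDH2 (654.5 and 10.2) and LHX1 (6.33 and 0) also had the larger mean in the opposite row. For PAX8 (0.333 and 7.67) and NEFL (20.7 and 30.8) the gene row was the larger. KRT8, with a mean of 3652, and KRT18, with 137, are each the opposite row of the other. The markers therefore did not all share 1 direction. PAX2, with no opposite row, had 1.17 reads. Markers of other cells, read by their gene rows only, ranged from 0 (ALB) to 16.8 reads (HBB). HBB lay above PAX2 and PAX8, so gene rows at this level do not tell cell types apart. The labels do not say that the libraries of a group were separate cultures, and p-values here measure only the spread between these libraries.

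The opposite rows held nearly all reads of each pair, in every library. The GAPDH row had 126 and 150 reads for WT, 202 and 181 for KO1, then 198 and 154 for KO2. AC006064.4 had 125569 and 133484, 136359 and 142186, and 122213 and 126941 in the same order. The strand ratio, reads in the opposite row over reads in the gene row, was therefore 997 and 890 for WT, 675 and 786 for KO1, then 617 and 824 for KO2. Both WT ratios lay above all 4 knockout ratios.

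For the alpha tubulin, the TUBA1B row had 165 and 162 reads for WT, 243 and 182 for KO1, then 179 and 217 for KO2. AC011603.2 had 182658 and 178385, 185345 and 197890, and 164713 and 177490, and ranked 2 of all rows by mean count. The strand ratio was 1107 and 1101 for WT, 763 and 1087 for KO1, then 920 and 818 for KO2. WT was again above every knockout library, by little in the second KO1 library. For the beta tubulin, the TUBB row had 74 and 76 reads for WT, 97 and 87 for KO1, then 88 and 95 for KO2, against 45333 and 48664, 53166 and 53626, and 50446 and 52309 in AL662797.1. Its ratio was 590 ± 38.3 (mean ± SD, n = 6), where that of TPT1 had a smaller SD at a lower mean (139 ± 14.4). In the TUBB ratio WT overlapped KO1.

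UBB had the most one-sided pair and TPT1 the least. The UBB row had 44 and 35 reads for WT, 46 and 39 for KO1, then 48 and 42 for KO2, while AC093484.3 had 65817 and 69438, 62712 and 65904, and 54673 and 61956. Its ratio ran from 1139 in the first KO2 library to 1984 in the second WT library, and KO1 overlapped both other groups, with KO2 just below WT. The TPT1 row had 346 and 341 reads for WT, 353 and 376 for KO1, then 415 and 435 for KO2. AL138963.3 had 48346 and 51866, 53478 and 55297, and 49254 and 53951. The ratio was 140 and 152 for WT, 151 and 147 for KO1, then 119 and 124 for KO2, so KO2 lay below both other groups. TPT1 has a second opposite row, TPT1-AS1, which shares 26 exonic bases with it and had 171 to 265 reads per library.

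**Figure D2:**
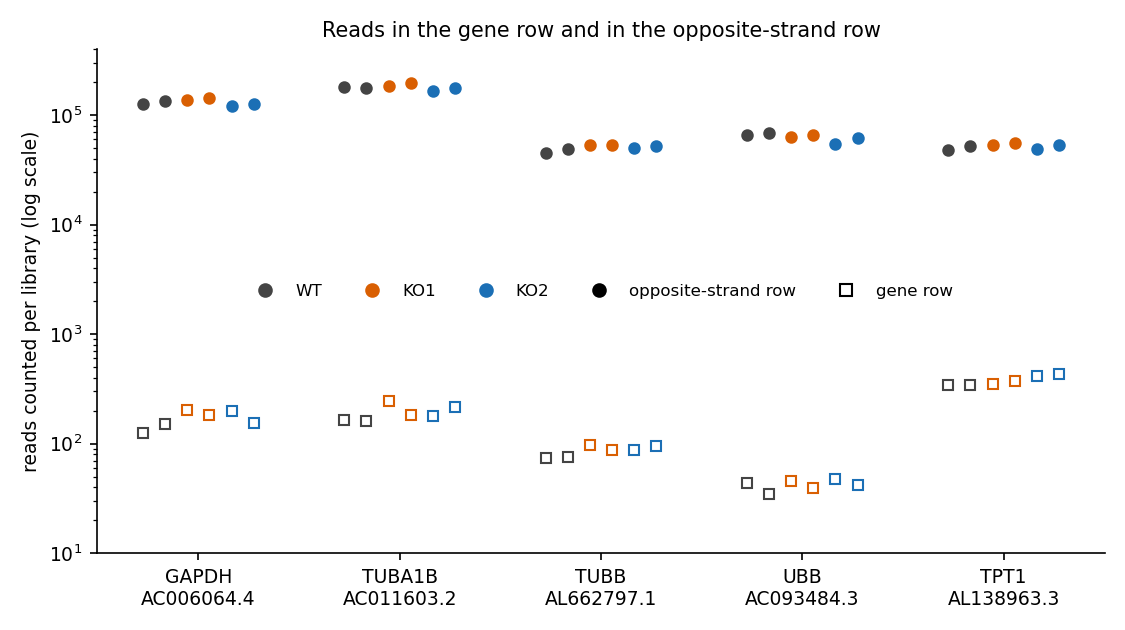
Reads per library (log axis) in the 5 gene rows (open squares) and the 5 opposite rows (filled circles), with WT in grey, KO1 in orange and KO2 in blue. Gene rows lie between 35 and 435 reads and opposite rows between 45333 and 197890.

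The 5 gene rows took 0.128% (GAPDH), 0.106% (TUBA1B), 0.170% (TUBB), 0.0667% (UBB) and 0.721% (TPT1) of their pairs' reads over the 6 libraries. By mean count the opposite rows ranked 2 (AC011603.2), 3 (AC006064.4), 9 (AC093484.3), 12 (AL138963.3) and 13 (AL662797.1) of the 59087 rows, while the gene rows ranked 2524 (TPT1) to 6923 (UBB). Among 1704 pairs of a protein-coding row and a non-coding opposite row, with both rows tested, the opposite row was the larger in 1322 (77.6%). The median log2 ratio over the 1704 pairs was 3.17, and those of the chosen pairs were 10.54 for UBB, 9.90 for TUBA1B, 9.62 for GAPDH, 9.19 for TUBB and 7.11 for TPT1, ranked 3, 6, 7, 10 and 133. Pseudogene rows held few reads beside the opposite rows. The 62 GAPDH pseudogene rows together held 48 to 72 reads per library, where the GAPDH row held 126 to 202. Rows whose symbols mark them as pseudogenes of the other genes held at most 6 for each gene. Pseudogenes with other symbols aligned to the shared blocks too, some of them closely. AL391416.1 matched the GAPDH block at 92.71% and BX119917.1 the TPT1 block at 93.84%, with means of 1.83 and 0 reads. The one with most reads among those of TUBA1B, AC002472.2 (78.85% over 851 bases), had a mean of 239.

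**Figure D3:**
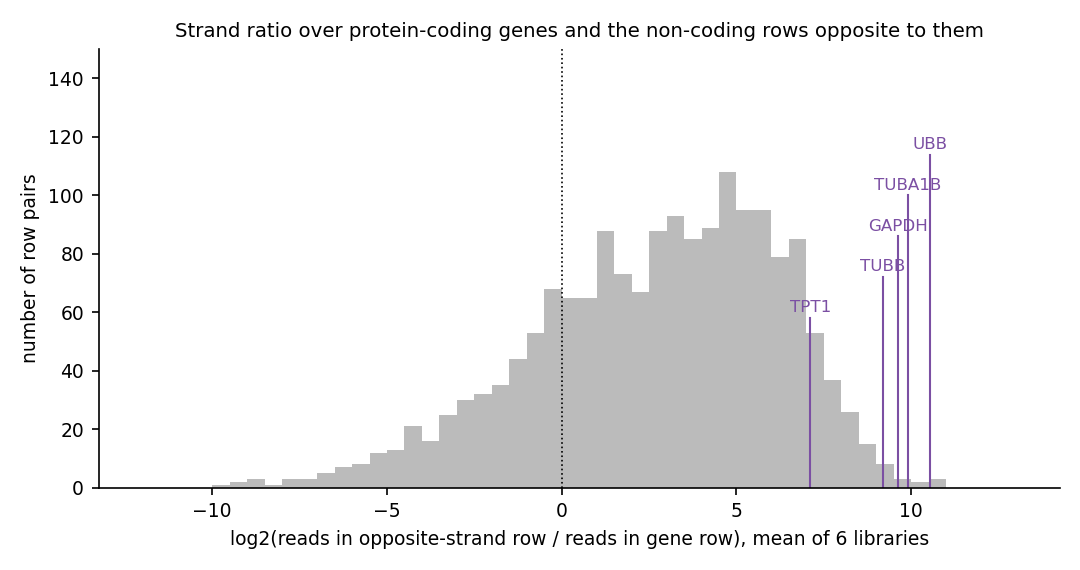
Distribution of the mean log2 strand ratio over 1704 pairs of a protein-coding row and a non-coding opposite row (grey, number of pairs per bin), with the chosen pairs marked in purple. Values right of the dotted line have more reads in the opposite row, and UBB, at 10.54, lies farthest right among the chosen pairs.

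The order of the genes depended on the length used. Per kilobase of shared exonic bases, AC006064.4 had 39810 ± 3701 RPM (reads scaled to the library total; mean ± SD, n = 6), AC011603.2 17729 ± 1743, AC093484.3 17612 ± 1723, AL662797.1 12036 ± 1005 and AL138963.3 11325 ± 845. All reads of a row were divided by its shared bases, which are 80.2% of AC011603.2 and 69.6% of AL662797.1. How many reads of these rows came from their other bases is not known, so their places in the order are uncertain. AC006064.4 over GAPDH stood above the rest in every library. Within a library, AC011603.2 was 0.905 to 1.06 times AC093484.3 on this scale, higher in 4 of 6 libraries. It was the lower of these neighbours in both WT libraries (0.977 and 0.905) and the higher in the 4 knockout libraries (1.01 to 1.06). This order was not tested. AL662797.1 was 1.025 to 1.119 times AL138963.3, higher in all 6 libraries, although their ranges over libraries (11059 to 13444 and 10568 to 12684) overlapped. In the authors' deposited FPKM the means were 88815 for AC006064.4, 54665 for AC011603.2, 22951 for AC093484.3, 14815 for AL138963.3 and 8496 for AL662797.1. That scale separates the tubulin row over TUBA1B from the row over UBB and puts the TPT1 row above the TUBB row. The gene sizes in the authors' deposited table were 192 bases for AC006064.4, 431 for AC011603.2, 359 for AC093484.3 and 456 for AL138963.3, against 422, 1632, 461 and 588 annotated exonic bases. For AL662797.1 both were 773. Gene rows lay at 3.28 (TUBB) to 7.25 (GAPDH) RPM per kilobase of their exons.

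In KO1 against WT, 4 of the 5 opposite rows rose, all by small amounts, and so did the gene rows of GAPDH and TUBA1B. Values are CPM, counts scaled to the library size after TMM scaling, and tests are the edgeR quasi-likelihood test with Benjamini-Hochberg adjustment over 14184 rows, where an adjusted p under 0.05 was called. All 10 rows passed the low-count filter, and 6 of them were called, all higher, where 23.6% of all tested rows were called, 10.4% higher and 13.3% lower. Among 145 rows with a mean CPM of at least 1000, 32.4% were called higher in KO1 and 20.7% lower. With upper-quartile scaling the calls over all rows moved from 1469 higher and 1881 lower to 1941 and 1549. In bulk RNA, a change of RNA per cell and a change in the mix of cells cannot be told apart.

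AC006064.4, over GAPDH, had 16936 and 16739 CPM for WT, 18195 and 20125 for KO1, then 14854 and 14651 for KO2. The 3 groups did not overlap, with KO1 highest and KO2 lowest. In KO1 it rose by 0.19 ± 0.04 (log2 fold change ± SE, edgeR adjusted p = 0.00033), which is 1.14-fold, and by 0.11 without the second KO1 library. The GAPDH row itself had 17.0 and 18.8 CPM for WT, 27.0 and 25.6 for KO1, then 24.1 and 17.8 for KO2. KO1 lay above the other groups, and WT and KO2 overlapped. It rose by 0.55 ± 0.16 in KO1 (edgeR adjusted p = 0.0114), and was not called with DESeq2 or without the first KO1 or the first WT library, at 0.56, 0.51 and 0.48.

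AC011603.2, over TUBA1B, had 24636 and 22369 CPM for WT, 24732 and 28009 for KO1, then 20019 and 20485 for KO2. The lower KO1 library was just above the higher WT library, and both KO2 libraries were below WT. It rose by 0.17 ± 0.04 in KO1 (edgeR adjusted p = 0.00343), by 0.07 without the second KO1 library, and was not called without the second WT library (0.10) or with DESeq2 (0.17). The TUBA1B row had 22.3 and 20.3 CPM for WT, 32.4 and 25.8 for KO1, then 21.8 and 25.05 for KO2. KO1 was above all other libraries. It rose by 0.45 ± 0.15 (edgeR adjusted p = 0.0263), and was not called with DESeq2 (0.46), without the first KO1 library (0.27) or without the second WT library (0.39).

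AL662797.1, over TUBB, had 6114 and 6102 CPM for WT, 7094 and 7590 for KO1, then 6131 and 6037 for KO2. KO1 stood above the other groups, and WT lay within the KO2 values. The rise in KO1 was 0.27 ± 0.04 (edgeR adjusted p = 5.55e-06) and was called under every alternative. The TUBB row, at 9.53 to 9.98 CPM in WT, 12.3 to 12.9 in KO1 and 10.70 to 10.96 in KO2, had groups that did not overlap, but its 0.37 ± 0.21 in KO1 was not called.

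AC093484.3, over UBB, was not called in KO1. It had 8877 and 8707 CPM for WT, 8368 and 9328 for KO1, then 6645 and 7151 for KO2. The KO1 libraries lay on either side of WT, and its change there was 0.01 ± 0.05 (edgeR adjusted p = 0.915), though it was called at 0.08 without the first KO1 library. The UBB row, at 4.39 to 6.14 CPM with all groups overlapping, was at 0.18 ± 0.29. AL138963.3, over TPT1, had 6521 and 6504 CPM for WT, 7136 and 7827 for KO1, then 5986 and 6227 for KO2, with no overlap between groups. In KO1 it rose by 0.20 ± 0.04 (edgeR adjusted p = 0.000571), and by 0.13 without the second KO1 library. The TPT1 row was lowest in the WT libraries, at 42.8 and 46.7 CPM against 47.1 to 53.2 in the knockouts, with 0.17 ± 0.11 in KO1, not called.

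**Figure D4:**
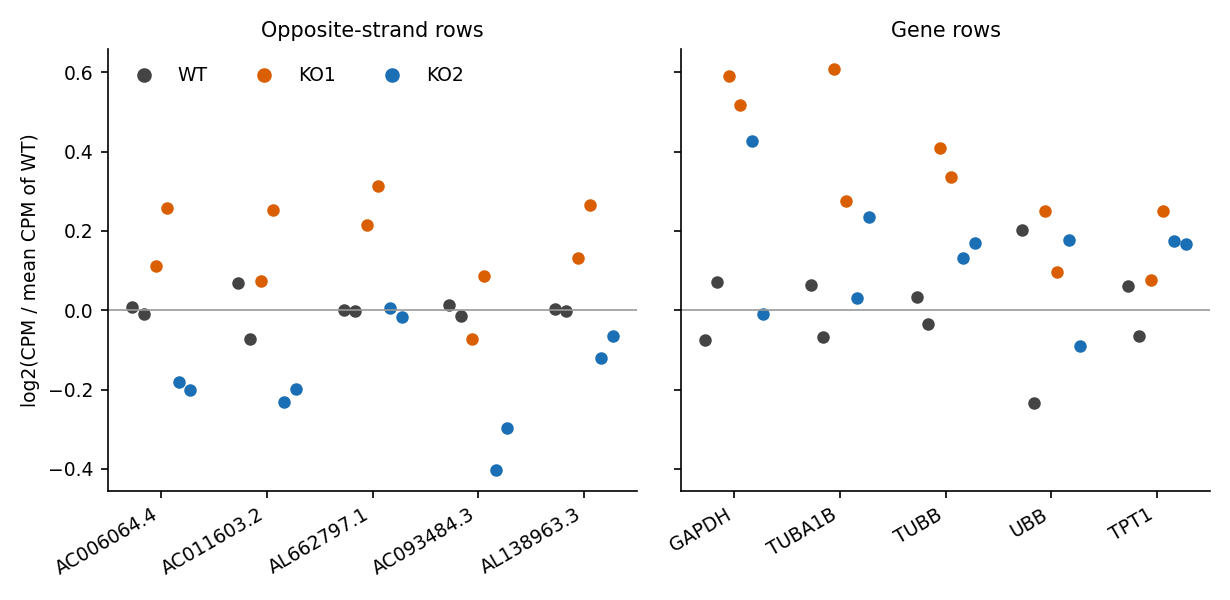
Level of each row in each library as log2 of its CPM over the mean CPM of WT, for opposite rows (left) and gene rows (right), with WT in grey, KO1 in orange and KO2 in blue. KO1 points lie above KO2 points in every opposite row.

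The second KO1 library was above the first in all 5 opposite rows, by 1.07 times for AL662797.1 to 1.13 times for AC011603.2. The corresponding WT ratios were 0.908 to 0.998 and those of KO2 0.985 to 1.08. For AC006064.4 the 2 KO1 libraries differed by 0.145 on the log2 scale, where counting alone gives an SD of 0.00547. For the gene row of TUBB each difference within a group was under its counting SD, which was 0.213 to 0.236. The 2 WT libraries of the UBB row differed by 0.435, with a counting SD of 0.327.

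In KO2 against WT, 3 opposite rows fell, and none of the 10 rows rose under TMM scaling. The 3 called rows compare with 29.0% of all tested rows called, 13.6% higher and 15.4% lower, a share near the background. Among the 145 rows with a mean CPM of at least 1000, 40.7% were called lower in KO2 and 24.1% higher. AC093484.3 over UBB fell by 0.35 ± 0.05 (edgeR adjusted p = 9.09e-08), or 1.27-fold. AC011603.2 over TUBA1B fell by 0.21 ± 0.04 (edgeR adjusted p = 0.000142), or 0.13 with library totals as the only scaling, and was not called with DESeq2. AC006064.4 over GAPDH fell by 0.19 ± 0.04 (edgeR adjusted p = 0.000187), or 0.11 with library totals.

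The 2 other opposite rows were not called in KO2. AL138963.3 over TPT1 was at −0.09 ± 0.04, and was called at this size with limma-voom, with the compared libraries only, and without either KO1 library. It was at −0.06 without the first KO2 library and −0.01 with library totals. AL662797.1 over TUBB was at −0.01 ± 0.04, with a sign that changed to 0.03 under upper-quartile scaling and 0.08, called, under library totals. The gene rows were at 0.22 ± 0.17 (GAPDH), 0.14 ± 0.15 (TUBA1B), 0.15 ± 0.21 (TUBB), 0.05 ± 0.29 (UBB) and 0.17 ± 0.11 (TPT1). None of them was called by edgeR, DESeq2 or limma-voom, and 0 had an unadjusted p under 0.05. The median over all tested rows was 0.02.

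Between the knockout lines, all 5 opposite rows were higher in KO1. This test does not use WT to define the difference, and 5 of the 10 rows were called, where 20.4% of all tested rows were called, 10.1% higher in KO1 and 10.3% lower. Of the 145 most abundant rows 42.8% were higher in KO1 and 15.9% lower. The differences were 0.38 ± 0.04 for AC006064.4, 0.38 ± 0.04 for AC011603.2, 0.27 ± 0.04 for AL662797.1, 0.36 ± 0.05 for AC093484.3 and 0.29 ± 0.04 for AL138963.3, with edgeR adjusted p-values from 1.47e-09 to 4.63e-06. In folds they ran from 1.21 (over TUBB) to 1.30 (over GAPDH and TUBA1B). All 5 were called under every alternative, with the lowest values between 0.18 for AL662797.1, with library totals as the only scaling, and 0.29 for AC006064.4 and AC011603.2. With library totals the median over all rows was −0.11, against −0.02, and the calls over all rows moved from 1429 higher and 1460 lower to 1001 and 1915.

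None of the 5 gene rows was called between the lines by edgeR, DESeq2 or limma-voom, and 2 had an unadjusted edgeR p under 0.05. GAPDH was at 0.33 ± 0.16, TUBA1B at 0.31 ± 0.15, TUBB at 0.22 ± 0.20, UBB at 0.13 ± 0.29 and TPT1 at −0.01 ± 0.10. GAPDH was called at 0.56 when the first KO2 library was left out. At 35 to 435 reads these rows had standard errors of 0.10 to 0.29, against 0.04 to 0.05 for the opposite rows.

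**Figure D5:**
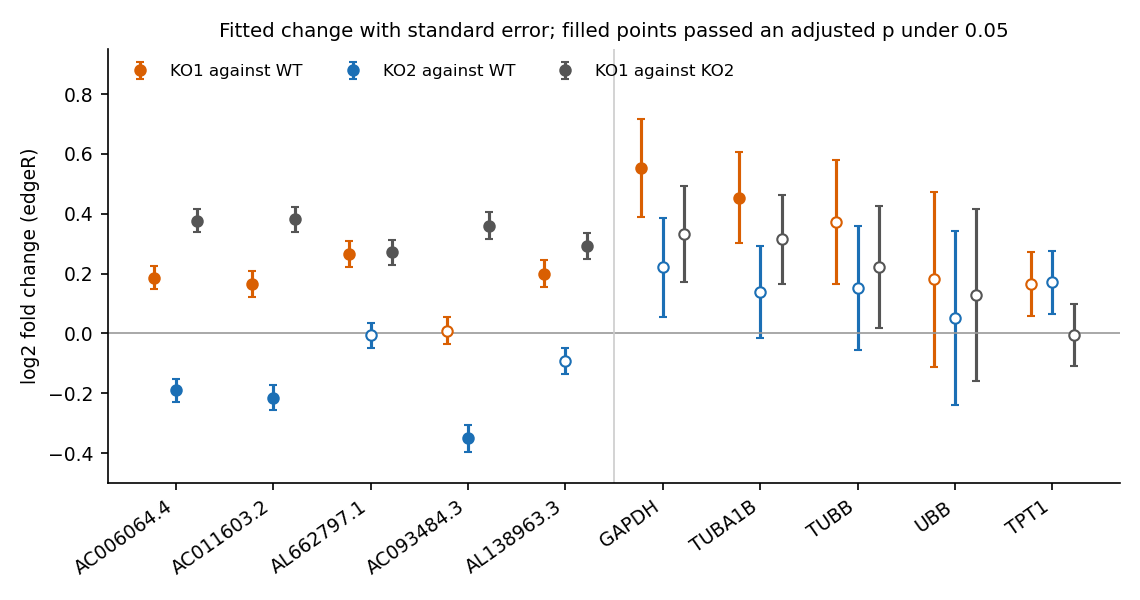
Fitted log2 fold change with its standard error for each row in 3 comparisons, filled where the edgeR adjusted p was under 0.05. The 5 opposite rows (left) are positive in KO1 against KO2, from 0.27 to 0.38, and the standard errors of the gene rows (right) reach 0.29.

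The strand ratio itself was tested with limma on the log2 ratio over 2932 pairs. None of the 5 pairs was called in KO1, in KO2, in the mean of both lines or between the lines, where 15.5%, 19.4%, 20.1% and 14.8% of all pairs were called. At an unadjusted p under 0.05 there were 0, 2, 1 and 1. The GAPDH ratio changed by −0.37 ± 0.18 in KO1 and −0.40 ± 0.18 in KO2 (limma adjusted p = 0.203 and 0.152). The TPT1 ratio was at −0.26 ± 0.12 in KO2 and 0.03 ± 0.12 in KO1, and differed by 0.30 ± 0.12 between lines (limma adjusted p = 0.112). TUBA1B was at −0.28 and −0.35, TUBB at −0.11 and −0.16, and UBB at −0.18 and −0.41, with standard errors of 0.18, 0.21 and 0.30. Single libraries moved these values. The TUBA1B ratio in KO1 was at −0.02 without the first KO1 library and −0.53 without the second, those of TUBB at −0.02 and −0.19, and the GAPDH ratio in KO2 at −0.19 without the first KO2 library and −0.61 without the second. The UBB ratio in KO2 was at −0.21 without the second WT library and −0.22 without the first KO2 library. The gene rows behind these ratios had 35 to 435 reads, and the values do not show that the ratios were the same in the 3 groups.

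Over the mean of both lines against WT, 3 of the 10 rows were called, where 28.3% of all rows were, 12.3% higher and 15.9% lower. AC093484.3 over UBB fell by 0.17 ± 0.04 (edgeR adjusted p = 0.000753), AL662797.1 over TUBB rose by 0.13 ± 0.04 (edgeR adjusted p = 0.00616) and the GAPDH row rose by 0.39 ± 0.14 (edgeR adjusted p = 0.0419). Fitting the 4 knockout libraries as 1 group in edgeR called 0 of the 10, with 0 at an unadjusted p under 0.05, and DESeq2 and limma-voom on the 3 groups called 2 each. The authors' deposited table gives log2 fold changes of knockout over WT from −0.14 (AC093484.3) to 0.41 (GAPDH), with q-values from 0.235 to 0.966.

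The ratio of AC006064.4 to AC011603.2 was 0.687 and 0.748 for WT, 0.736 and 0.719 for KO1, then 0.742 and 0.715 for KO2, and the groups overlapped. The row over UBB was lower relative to each of the other 4 in all knockout libraries than in WT. AC093484.3 relative to AL138963.3 was 1.36 and 1.34 for WT, 1.17 and 1.19 for KO1, then 1.11 and 1.15 for KO2. WT was above all 4 knockout libraries. AL662797.1 relative to AC093484.3 was 0.689 and 0.701 in WT and 0.814 to 0.923 in the knockouts. Of 10 such ratios 7 had WT outside the knockout range, each at the smallest two-sided p the exact permutation test of 2 against 4 libraries can give (0.133, adjusted over the 10 ratios 0.190), so none could pass the threshold. The 10 ratios were formed from the same 5 rows, so they are not separate readings, and the 4 with AC093484.3 are among the 7. How often ratios of other rows separate WT from the knockouts was not computed.

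Rows near 4 of the 5 genes had medians near or below 0. Within 5 Mb of GAPDH, 93 tested rows had a median of −0.16 between KO1 and KO2, where AC006064.4 was at 0.38. The medians around TUBA1B (116 rows), TUBB (121) and TPT1 (56) were −0.03, −0.06 and 0.02. Around UBB (76 rows) the median was 0.23, on the same side as the 0.36 of AC093484.3. By root mean square difference of centred log2 CPM over the 6 libraries, among 2485 rows with a mean CPM of at least 50, the closest row to AC006064.4 was AL356481.1 (0.0198), to AC011603.2 IFT74 (0.0210), which lies over PLAA, and to AL662797.1 ENOSF1 (0.0232). SNRNP25, over POLR3K, was closest to AC093484.3 (0.0169) and SLC5A6, over ATRAID, to AL138963.3 (0.0178). Between the opposite rows themselves the values ran from 0.0410 (over GAPDH and TUBA1B) to 0.152 (over TUBB and UBB).

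Other genes of the same pathways were read by the row of their own name and, where one lay over them, by an opposite row, leaving out the 10 rows described above. Counts are of rows called by the same edgeR test, and these rows were not refitted under the other scalings. A gene name here and in the next paragraphs stands for its gene row. Whether such a row follows the mRNA of the gene was not tested. Over all tested rows 10.4% were called higher and 13.3% lower in KO1, and 13.6% and 15.4% in KO2, with medians of 0.01 and 0.02. Of 14 other glycolysis rows 1 was higher and 1 lower in KO1, and 2 were higher and 0 lower in KO2, with medians of 0.16 and 0.14. The row of PKM, the last enzyme of the pathway, with a mean of 216 reads, rose by 0.78 ± 0.14 in KO1 and 0.62 ± 0.14 in KO2. Of 4 opposite rows over other glycolysis genes 1 was lower in KO1 and 2 in KO2. ENO1-AS1, over enolase 1, fell by 0.67 and 0.46. The opposite row of aldolase A, AC093512.1, held 10396 reads on average against 22 in the ALDOA row.

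Of 7 other tubulin rows 3 were higher in KO1, and in KO2 3 were higher and 1 lower. TUBA1C, near-identical to TUBA1B, rose by 0.39 ± 0.11 and 0.45 ± 0.11, and TUBB4B by 0.97 ± 0.23 and 0.76 ± 0.23. Both gene rows held the smaller part of their pairs. TUBA1C had a mean of 1410 reads against 38298 in its opposite row AC125611.3, and TUBB4B 90.5 against 5103 in FAM166A. Of 6 opposite rows over other tubulin genes, these included, 0 were called higher in either line, and 2 were lower in KO1 and 3 in KO2. AC010503.1 over TUBB4A fell by 1.31 and 0.99, and RETREG3 over the gamma tubulin TUBG1 by 0.19 and 0.38. Of 12 tubulin folding and modification rows 2 were higher and 1 lower in KO1, and 1 higher and 1 lower in KO2. The row of the folding cofactor TBCE rose by 0.87 and 0.60, and that of VASH1, a tubulin carboxypeptidase, fell by 0.26 and 0.82.

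Of 17 other rows for ubiquitin and its first enzymes 3 were higher and 2 lower in each line. The row of the E1 enzyme UBA1 rose by 0.59 ± 0.20 and 0.73 ± 0.20, and that of the E2 enzyme UBE2N fell by 1.15 ± 0.26 and 1.14 ± 0.26. Of the 5 opposite rows 2 were lower in KO1 and 3 in KO2, with NUDT4 over UBE2N at −0.79 and −0.44, called in both. Of 13 other translation-linked rows 4 were higher in KO1, and in KO2 2 were higher and 1 lower. The row of the elongation factor EEF2 rose by 0.46 ± 0.09 and 0.48 ± 0.09, and that of the poly(A)-binding protein PABPC1 by 0.44 ± 0.13 and 0.64 ± 0.13. Of 24 rows for other common reference genes 1 was higher in KO1, and in KO2 1 was higher and 1 lower. ACTB, beta actin, was at 0.29 ± 0.12 and 0.13 ± 0.11, not called.

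Markers of HEK293T and kidney moved between the lines too. Of 7 tested marker rows 2 were lower in KO1 and 5 higher in KO2. Of 7 opposite rows over markers 1 was higher and 3 lower in KO1, and 6 were higher and 1 lower in KO2. KRT8 and KRT18 are each the opposite row of the other and are in both sets, so these counts are not separate readings. Between KO1 and KO2, 5 of the marker rows and 4 of the opposite rows were lower in KO1, with medians of −0.95 and −0.91, while the 5 opposite rows described above were higher there. KRT8 was at −0.34 ± 0.06 in KO1 and 0.29 ± 0.06 in KO2, and at −0.63 ± 0.06 between the lines (edgeR adjusted p = 1.2e-09). AC110015.1, over the cadherin gene CDH2, rose by 1.51 ± 0.09 in KO1 and 1.48 ± 0.09 in KO2. It was not called between the lines, at 0.02 ± 0.08. AC243773.1, over LHX1, had a mean of 6.33 reads and was called lower in both lines, at −4.54 and −2.205. The part of the markers in the changes of the 10 rows was not tested.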

How the data were processed

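RNA-seq libraries of WT, KO1 and KO2 HEK293T cells were analysed from the authors' tables. The authors deposited raw read counts per gene symbol. Per the submitters' processing notes, the reads were handled with STAR 2.7.1a, HTSeq 0.6.1p1, Trim Galore and limma, on the builds GRCh38.p6 and hg38. The annotation version is not given in the sources used here. A second deposited table holds FPKM per library, gene sizes, log2 fold changes of knockout over WT, and p-values with q-values. These were used only where named.

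Counts were fitted with edgeR 4.0.16 (quasi-likelihood F test, TMM, filterByExpr) in R 4.3.3, with all 6 libraries in 1 fit of 3 groups, 3 residual and 31.9 prior degrees of freedom, and a biological coefficient of variation of 7.57%. Strand ratios, log2 of opposite over gene row with 0.5 added to each, were fitted with limma 3.58.1 over 2932 opposite-strand pairs that share at least 100 exonic bases. Both fits were tested on simulated data. Rows were placed by unique symbol in GENCODE v29 (56195 of 59087). Shared coding blocks were compared with blastn 2.17.0 against its transcripts.

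The 10 rows, the gene lists, the tests and the alternatives were chosen with earlier results of these data known. Named outside the 10 were rows sharing exons with them, pseudogene rows, the closest rows by library pattern, and for each list up to 3 rows called in both lines, or failing that the most abundant. A row that this rule picks is not reported here. Alternatives were RLE and upper-quartile factors, library totals, DESeq2 1.42.0, limma-voom, other filters and prior counts, the replicate block, fits of the compared libraries only, summed pairs, other overlaps and leaving out each library.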

Additional observations from a re-analysis of the deposited data

Results flagged for a closer look

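The 5 opposite rows differed between the knockout lines, by the edgeR test of KO1 against KO2, and so stand out as results that the 2 lines do not share. The change against WT in KO1 minus that in KO2 was 0.38 on the log2 scale for AC006064.4 over GAPDH, 0.38 for AC011603.2 over TUBA1B, 0.36 for AC093484.3 over UBB, 0.29 for AL138963.3 over TPT1 and 0.27 for AL662797.1 over TUBB. The rows over GAPDH and TUBA1B were called in both lines with opposite signs, higher in KO1 and lower in KO2. No gene row was called between the lines.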

How the results depend on the processing

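For single rows, 434 alternative values kept their sign and call, 9 lost the call, 6 gained one and 16 changed sign, and for strand ratios 155 kept them and 7 changed sign. Called rows in KO1 fell from 6 to 3 with DESeq2. Called rows for the mean of both lines fell from 3 to 0 when the knockout libraries were 1 group, and this also took calls over all rows from 4009 to 1223. Leaving out each library gave 4 to 6 called rows in KO1, 3 to 4 in KO2, 1 to 5 for the mean and 5 to 6 between lines. The lowest count for the mean came without either WT library and the highest without the second KO1 library, and called strand ratios for the mean were 0 to 1. Without the limma trend, pairs called over all pairs fell from 453 to 117 in KO1, 570 to 142 in KO2, 589 to 131 for the mean and 433 to 18 between lines. The cause was not tested in any of these.

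Signs changed only in values that the edgeR or limma fit had not called. AC093484.3 in KO1 was at −0.0017 with library totals, and AL662797.1 in KO2 at 0.027 with upper-quartile factors and 0.075 with library totals. TPT1 between lines was at 0.011 with RLE factors, 0.011 with DESeq2, 0.038 with upper-quartile factors and 0.016 with no filter. With 1 library left out, ranges were −0.074 to 0.084 for AC093484.3 and −0.028 to 0.41 for UBB in KO1. In KO2 they were −0.0079 to 0.012 for AL662797.1, −0.0027 to 0.43 for GAPDH and −0.15 to 0.28 for UBB, and between lines −0.098 to 0.081 for TPT1 and −0.0069 to 0.26 for UBB. Strand ratios ranged from −0.027 to 0.095 for TPT1 and −0.38 to 0.020 for UBB in KO1, and between lines from −0.18 to 0.24 for GAPDH, −0.19 to 0.33 for TUBA1B and −0.035 to 0.13 for TUBB.

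With the replicate number as a block, 6, 3 and 5 rows were called in KO1, in KO2 and between lines, 2 for the mean, and 0 strand ratios. Deviations of same-numbered libraries correlated at −0.01 (WT and KO1), 0.03 (WT and KO2) and −0.12 (KO1 and KO2) over 5247 rows. The labels do not say whether same-numbered libraries shared a culture or batch, and 2 libraries per group cannot settle it. Depth limits the gene rows, at 35 to 435 reads, far more than the opposite rows.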
